A study of Rattus norvegicus with 12 samples.

Results

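The genes described here are the translation initiation factor genes of the rat, taken as every gene whose symbol begins with Eif and a digit, without the eIF2 kinases (symbols beginning Eif2ak). They were 40 of the 14506 genes measured, each represented by its brightest probe set, averaged over 12 arrays, among those carrying exactly 1 gene symbol. By role the 40 genes are 4 of the eIF1 and eIF1A group, 11 of eIF2, its exchange factor eIF2B and related factors, 10 subunits of eIF3, 9 of the eIF4 group, 3 proteins that bind eIF4E, and 3 that act late in initiation or on the large ribosomal subunit. The rule follows symbols and not function, so it also takes in the repressors Eif4ebp1 and Eif4ebp2 and the shuttling protein Eif4enif1. Other genes with such symbols, among them Eif4g1 and Eif4ebp3, were not analysed here.

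The study measured RNA from vascular smooth muscle cells of the aorta of Sprague-Dawley rats on Affymetrix Rat Gene 1.0 ST arrays. All cells were grown with 10% serum and then held without serum for 48 h. Control cells received no angiotensin II (Ang II), the peptide hormone that constricts vessels and drives growth of this muscle, and the other 3 groups received 100 nM Ang II for 6, 12 or 24 h, with 3 arrays in each of the 4 groups. The times are those of the sample titles and the series design, whereas the treatment protocol in the labels names 1, 3 or 24 h. Replicates are labelled biological, but nothing says that they came from different animals or cultures. The p-values therefore reflect only the scatter among these samples, which may be technical. Untreated cells held for 6, 12 or 24 h were not analysed here, so the action of Ang II and time in culture cannot be told apart. In a bulk sample, fewer cells of a type and less RNA per cell also cannot be told apart.

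All values are log2 values deposited by the authors, in which a difference of 1 is a doubling, and a change is the mean of an Ang II group minus the mean of the control, given ± its standard error (SE) from the fit with n = 3 arrays per group. A gene is said to have risen or fallen where limma's moderated test gave a Benjamini-Hochberg adjusted p under 0.05, adjusted over all 14506 genes within a comparison. Correlations between arrays were 0.9975 to 0.9984 within groups and 0.9868 to 0.9941 between groups. All 10 smooth muscle markers lay at or above the median level of all genes, while 0 of 7 endothelial and 0 of 8 leukocyte markers did. Of 6 fibroblast markers, 4 were at or above that median, and their summed log2 level was 58.52 to 58.86 on the control arrays against 55.12 to 56.21 on the arrays with Ang II. The summed level of the smooth muscle markers was 124.17 to 124.61 on the control arrays and 128.41 to 128.47 at 24 h. The part of either shift in the results below was not tested.

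Initiation is the step at which a ribosome is loaded on a message and finds the start codon. The factor eIF2 carries the initiator transfer RNA with GTP and is recharged by eIF2B, and eIF3 is a large scaffold on the small ribosomal subunit that works there together with eIF1 and eIF1A. The cap of the message is bound by eIF4E, which joins the scaffold eIF4G and the helicase eIF4A in a complex named eIF4F, while the proteins called 4E-BPs keep eIF4E out of it until they are phosphorylated downstream of mTOR. Ang II is known as a stimulus of hypertrophic growth in vascular smooth muscle, a growth that depends on protein synthesis.

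The initiation factor genes moved in both directions, by small amounts, and the balance shifted from higher at 6 h to lower at 24 h. At 6 h of Ang II 19 of the 40 rose and 10 fell, against 18.6% of all genes higher and 17.2% lower. At 12 h 5 rose and 12 fell, against 13.3% of all genes in either direction. At 24 h 6 rose and 15 fell, against 15.3% of all genes higher and 14.7% lower. The 3 comparisons share their control arrays. The median change of the 40 genes was 0.11 at 6 h, -0.01 at 12 h and -0.08 at 24 h. The median was 0.01, 0.01 and 0.05 over all genes, and 0.02, -0.00 and -0.01 over genes at or above the median level. With each array centred on its median, the median of the 40 was 0.13, 0.01 and -0.03, so its sign at 12 h depended on the scaling. That sign also turned without control replicate 2 or replicate 1 at 12 h (0.01 in both), and without replicate 2 at 24 h the 24 h median was -0.05.

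Because 39 of the 40 lay at or above the median level of all genes, where the test calls more genes, the share among genes of that level was taken as a second background. It was 31% higher and 26.3% lower at 6 h, 21.3% and 20.9% at 12 h, and 20.3% and 24.1% at 24 h. Against these, the initiation factor genes stood at 47.5% higher and 25% lower at 6 h, 12.5% and 30% at 12 h, and 15% and 37.5% at 24 h. An F test over the 4 groups called 36 of the 40, against 51.5% of all genes and 77.4% of those at or above the median level. The 4 it did not call were Eif2s2, Eif3d, Eif3k and Eif4g2. Eif4a2 was the 1 member whose called change reached 1.5-fold.

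Some of these counts rested on single arrays. The 10 lower at 6 h became 6 without control replicate 2. The 5 higher at 12 h became 3 without replicate 2 of the 12 h group. The 6 higher at 24 h became 2 without control replicate 1, and 3 without control replicate 2 or 3 or replicate 1 of the 24 h group. With fewer arrays, fewer of all genes were called too. Those lower at 6 h went from 2488 to 2120 without control replicate 2, and those higher at 12 h from 1932 to 1595 without replicate 2 at 12 h. Those higher at 24 h went from 2222 to 1719 without control replicate 1. With arrays centred on their medians the split at 24 h was 9 higher and 13 lower, and 67.5% of all called genes were then higher, against 51.0% as deposited.

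**Figure D1:**
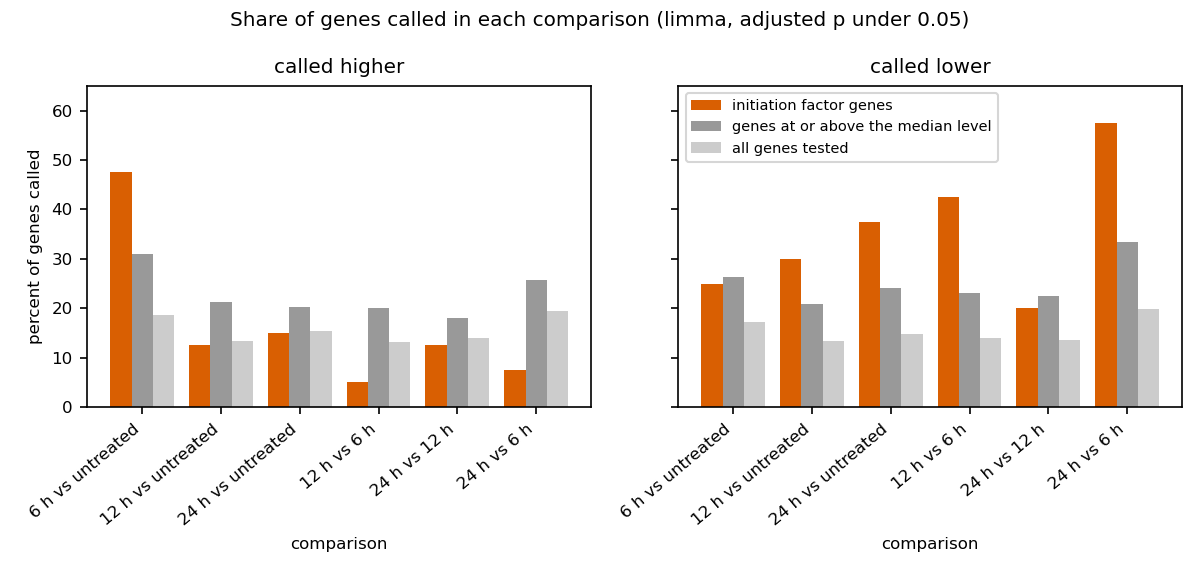
The bars give the percent of genes called higher (left) and lower (right) in each of 6 comparisons (x axis) for the 40 initiation factor genes, for genes at or above the median level and for all 14506 genes, at a limma adjusted p under 0.05. The initiation factor genes reach 47.5% higher at 6 h against untreated cells and 57.5% lower at 24 h against 6 h.

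**Figure D2:**
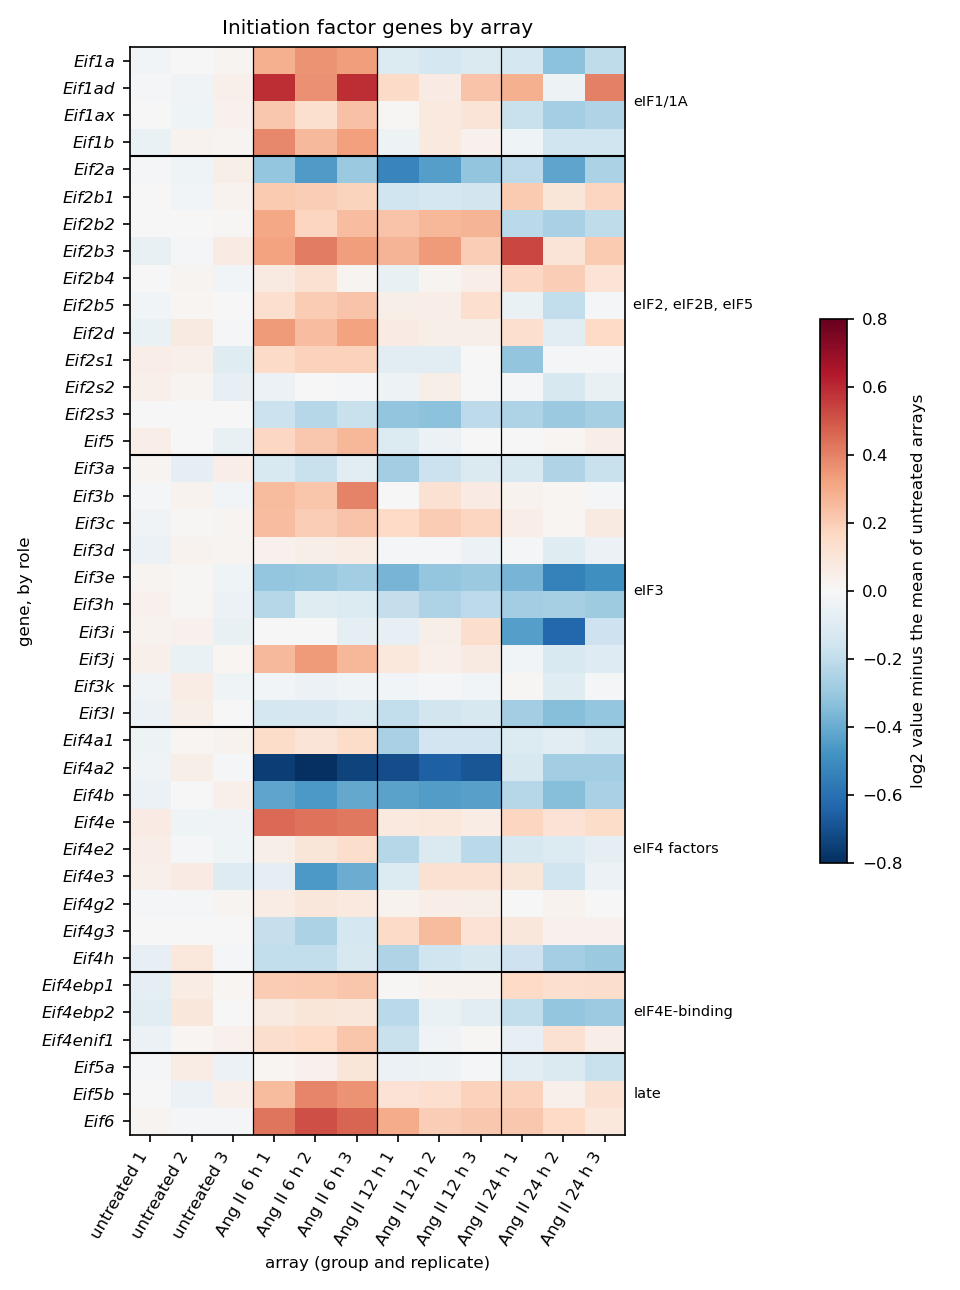
Each cell is the log2 value of a gene (rows, by role) on an array (columns) minus the mean of the 3 untreated arrays, from blue (lower) to red (higher). Eif4a2 shows the deepest blue, at 6 and 12 h, and the 4 eIF1 genes are red at 6 h.

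The upstream sequences of several members are shown. Of these, Eif4e, Eif3b, Eif6 and Eif2b2 rose at 6 h and hold a searched motif, and Eif4a2 fell and holds none. They do not stand for all genes that rose or fell. Eif4h and Eif2a fell and hold a motif, while Eif5 and Eif5b rose and hold none. Myc, a transcription factor linked to growth, binds the E-box, and ETS proteins bind a core motif common in promoters of housekeeping genes. The RefSeq promoter table (rat assembly GRCr8, 250 bases before to 50 after each annotated start) held 35 of the 40 genes, with 38 promoters, and Eif3e, Eif3h, Eif4b, Eif4e3 and Eif4ebp1 have no entry. The 250 bases before the start follow, with a searched motif in capitals where there is one. Eif4e lies at chr2:229740503-229740752 (plus strand) and Eif3b at chr12:19334769-19335018 (minus strand), both with the E-box CACGTG. Eif6 lies at chr3:164791411-164791660 (minus strand) and Eif2b2 at chr6:110597729-110597978 (plus strand), both with the ETS core CCGGAAG. Eif4a2 lies at chr11:91275324-91275573 (minus strand) and holds none of the searched motifs.
Eif4e: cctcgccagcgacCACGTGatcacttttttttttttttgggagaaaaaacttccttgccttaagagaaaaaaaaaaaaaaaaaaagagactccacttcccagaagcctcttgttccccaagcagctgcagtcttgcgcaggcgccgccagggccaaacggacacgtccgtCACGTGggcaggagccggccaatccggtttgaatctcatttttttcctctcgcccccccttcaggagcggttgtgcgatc
Eif3b: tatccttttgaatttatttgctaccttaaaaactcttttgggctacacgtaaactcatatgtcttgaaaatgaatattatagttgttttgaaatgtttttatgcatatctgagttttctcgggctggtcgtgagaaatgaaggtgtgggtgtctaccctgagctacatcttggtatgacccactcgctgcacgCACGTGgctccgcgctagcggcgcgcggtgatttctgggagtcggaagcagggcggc
Eif6: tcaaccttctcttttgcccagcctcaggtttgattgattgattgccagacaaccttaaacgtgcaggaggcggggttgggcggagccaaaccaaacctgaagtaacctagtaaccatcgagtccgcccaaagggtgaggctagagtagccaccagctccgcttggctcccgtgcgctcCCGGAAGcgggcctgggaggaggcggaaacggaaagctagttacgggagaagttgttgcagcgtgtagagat
Eif2b2: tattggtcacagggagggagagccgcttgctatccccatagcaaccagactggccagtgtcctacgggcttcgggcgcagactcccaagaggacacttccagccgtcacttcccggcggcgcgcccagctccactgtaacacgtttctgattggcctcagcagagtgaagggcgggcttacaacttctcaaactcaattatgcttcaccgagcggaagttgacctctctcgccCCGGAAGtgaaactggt
Eif4a2: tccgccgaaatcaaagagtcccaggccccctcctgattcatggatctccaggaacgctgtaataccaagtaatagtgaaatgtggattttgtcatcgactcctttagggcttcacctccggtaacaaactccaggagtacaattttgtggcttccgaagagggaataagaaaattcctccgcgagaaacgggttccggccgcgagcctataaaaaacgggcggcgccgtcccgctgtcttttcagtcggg

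The motifs were searched on both strands over the whole promoter window, none overlapping another in its letters, and they were chosen with earlier results known. The E-box CACGTG was in 6 of the 35 genes (17.1%), against 6.42% of all 33469 promoters and 8.05% of the 11968 tested genes with a promoter. The 6 were Eif1b, Eif3a, Eif3b, Eif4e, Eif4h and Eif5a, and Eif4e held it at 2 places, beginning at -237 and -80 from the start. The ETS core CCGGAAG was in 14 of 35 (40%), against 8.75% of promoters and 13.1% of tested genes. The AP-1 site TGACTCA was in 2 of 35 (5.71%), Eif1ad and Eif3j, against 4.63% and 4.04%. Of the 18 genes with a promoter that rose at 6 h, 3 held the E-box and 8 the ETS core. Of the 6 that fell, 1 held each, and of the 11 that did neither, 2 held the E-box and 5 the ETS core. The motif shares among genes at or above the median level, where nearly all initiation factor genes lie, are not given. Whether the members differ from other genes of that level was not tested. A match is a description of the letters and shows no binding.

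Messages that begin with a C and a run of pyrimidines, called TOP messages, include many of the translation machinery. Their translation is known to be controlled through mTOR. The search here took C or T as the first base, and the run of Eif2s3 begins with T, so a run found is not by itself a TOP message. A run of at least 8 C or T from the annotated start was in 1.45% of promoters and in 2 of the 35 genes, Eif2s3 and Eif2a. The 30 bases around the start, 10 before and 20 after, are given for both, and for Eif4e and Eif6 as examples without such a run, with the C or T run from the start in capitals. The windows are chrX:62933680-62933709 (minus strand) for Eif2s3, chr2:144911350-144911379 (plus) for Eif2a, chr2:229740743-229740772 (plus) for Eif4e and chr3:164791391-164791420 (minus) for Eif6. Eif2s3 and Eif2a fell at all 3 times. The other 4 genes with a promoter that fell at 6 h, Eif3l, Eif4a2, Eif4g3 and Eif4h, had runs of at most 3, as did all 18 that rose. No promoter entry was there to read for Eif3e, Eif3h, Eif4b and Eif4e3, which fell at 6 h, or for Eif4ebp1, which rose. Whether such runs bear on the RNA changes was not tested.
Eif2s3: cagccgagcaTTTTCCTTTTCTCTCTgagc
Eif2a: gcatgggtttCTCTTTCCgggacaagatgg
Eif4e: ttgtgcgatcagatcgatctaagatggcga
Eif6: gtgtagagatTggagtcgtttggtgagctg

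Within the eIF4 group, Eif4a2 fell most and was partly back by 24 h, Eif4b fell at all 3 times, and the cap-binding gene Eif4e rose at 6 h. Of the 9 genes, 2 rose and 5 fell at 6 h, 1 rose and 5 fell at 12 h, and 1 rose and 3 fell at 24 h. For this and the roles below, the shares of all genes called were 18.6% higher and 17.2% lower at 6 h. They were 13.3% in either direction at 12 h, and 15.3% and 14.7% at 24 h. For genes at or above the median level they were 31% higher and 26.3% lower at 6 h. At 12 h they were 21.3% and 20.9%, and at 24 h 20.3% and 24.1%. With so few genes in a role, its counts were not tested against these shares. All array values are given for Eif4a2, Eif1ad, Eif4e, Eif4ebp1 and Eif4ebp2 by rule, and for 8 more genes chosen after their values were seen (Eif4a1, Eif4b, Eif4g3, Eif1a, Eif2b1, Eif2b2, Eif3e and Eif6).

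Eif4a2 encodes the second form of the helicase that unwinds the leader of the message. Its log2 values were 11.80, 11.88 and 11.82 on the control arrays, 11.08, 11.03 and 11.09 at 6 h, 11.13, 11.18 and 11.15 at 12 h, and 11.71, 11.55 and 11.56 at 24 h. Every array with Ang II lay below every control array, and the 24 h arrays lay above those at 6 and 12 h. The change was -0.77 ± 0.05 at 6 h (1.7-fold, limma adjusted p = 1.78e-07), -0.68 ± 0.05 at 12 h (adjusted p = 8.6e-07) and -0.23 ± 0.05 at 24 h (adjusted p = 0.004). From 12 to 24 h it rose by 0.45 ± 0.05 (limma adjusted p = 3.85e-05). Its upstream bases above hold none of the searched motifs, which is also so for some genes that rose at 6 h, such as Eif5b.

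Eif4a1, the first and closely related form of the same helicase, rose at 6 h and fell at 12 h. Its values were 12.80, 12.86 and 12.87 on the control arrays, 12.99, 12.95 and 12.99 at 6 h, 12.58, 12.69 and 12.69 at 12 h, and 12.73, 12.75 and 12.72 at 24 h. The 6 h arrays were above and the 12 h and 24 h arrays below all control arrays. The change was 0.13 ± 0.04 at 6 h (limma adjusted p = 0.0287) and -0.19 ± 0.04 at 12 h (adjusted p = 0.00556), and it did not pass at 24 h (-0.11, adjusted p = 0.0802). The rise at 6 h was lost without control replicate 1 or 2 or replicate 1 or 3 of the 6 h group (adjusted p up to 0.109), and under further quantile normalization (0.08, adjusted p = 0.14). On each array the difference Eif4a2 minus Eif4a1 changed by -0.90 at 6 h, -0.49 at 12 h and -0.12 at 24 h (exact two-sided permutation p = 0.1, 0.1 and 0.2, and 0.15, 0.15 and 0.257 adjusted over 9 such tests). With 3 arrays against 3 the smallest p possible is 0.1.

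Eif4b, a cofactor that stimulates the helicase, had values of 12.71, 12.76 and 12.79 on the control arrays, 12.33, 12.29 and 12.35 at 6 h, 12.32, 12.31 and 12.32 at 12 h, and 12.52, 12.41 and 12.49 at 24 h. No array with Ang II reached a control array. The change was -0.43 ± 0.04 at 6 h (limma adjusted p = 7.33e-06), -0.44 ± 0.04 at 12 h and -0.28 ± 0.04 at 24 h. Eif4h, a related cofactor, fell by 0.18, 0.17 and 0.24. Its call at 6 h was lost without control replicate 2 or 3 or replicate 1 or 2 of the 6 h group (adjusted p up to 0.102), and at 12 h without control replicate 2 or 3 or replicate 1 or 2 of the 12 h group (adjusted p up to 0.133).

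Eif4e, the cap-binding protein itself, had values of 10.45, 10.35 and 10.36 on the control arrays, 10.84, 10.82 and 10.81 at 6 h, 10.46, 10.47 and 10.45 at 12 h, and 10.56, 10.51 and 10.53 at 24 h. The 6 h arrays stood clear of all others. The rise at 6 h was 0.44 ± 0.04 (1.35-fold, limma adjusted p = 3.48e-06), after which the gene fell by 0.36 ± 0.04 from 6 to 12 h (adjusted p = 3.64e-05). It did not pass at 12 h (0.07, adjusted p = 0.23) and was 0.14 ± 0.04 higher at 24 h (adjusted p = 0.0163), a call lost without control replicate 2 or 3 (adjusted p up to 0.0642). That call was also lost with only the compared groups in the fit (limma adjusted p = 0.0621). The 2 E-boxes shown above lie upstream of this gene. RefSeq lists 11 pseudogenes of Eif5, 10 of Eif4e and 8 of Eif4a1, and 24 of the 40 genes have at least 1, whose signal the probe sets may not separate.

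Among the relatives of eIF4E, Eif4e2, a cap-binding homologue that does not support general initiation, was not called at 6 h (0.10, limma adjusted p = 0.139) and fell by 0.19 at 12 h. Its fall was not called when each Ang II group lost its array of narrowest spread (-0.17, adjusted p = 0.0646). Eif4e3 was lower at 6 h (-0.31 ± 0.10, adjusted p = 0.0351), although its arrays there, 7.71, 7.32 and 7.39, overlapped the control arrays at 7.82, 7.85 and 7.68. That call was lost without control replicate 1 or 2 or replicate 2 or 3 of the 6 h group (adjusted p up to 0.135).

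Of the eIF4G-type scaffolds, Eif4g3 moved both ways and Eif4g2, a relative that lacks the part that binds eIF4E, was not called at any time. The values of Eif4g3 were 9.91, 9.90 and 9.91 on the control arrays, 9.72, 9.65 and 9.77 at 6 h, 10.06, 10.16 and 10.02 at 12 h, and 10.00, 9.94 and 9.94 at 24 h. All 6 h arrays lay below and all 12 h arrays above the control arrays. The change was -0.19 ± 0.05 at 6 h (limma adjusted p = 0.00582) and 0.17 ± 0.05 at 12 h (adjusted p = 0.0156, or 0.0699 without replicate 2 of the 12 h group), and 12 h exceeded 6 h by 0.37 ± 0.05 (adjusted p = 0.000114). On each array the difference Eif4g3 minus Eif4g2 changed by -0.27, 0.13 and 0.04 at 6, 12 and 24 h. The exact two-sided permutation p was 0.1, 0.1 and 0.3, where 0.1 is the smallest possible. Adjusted over the 9 tests it was 0.15, 0.15 and 0.3375.

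**Figure D3:**
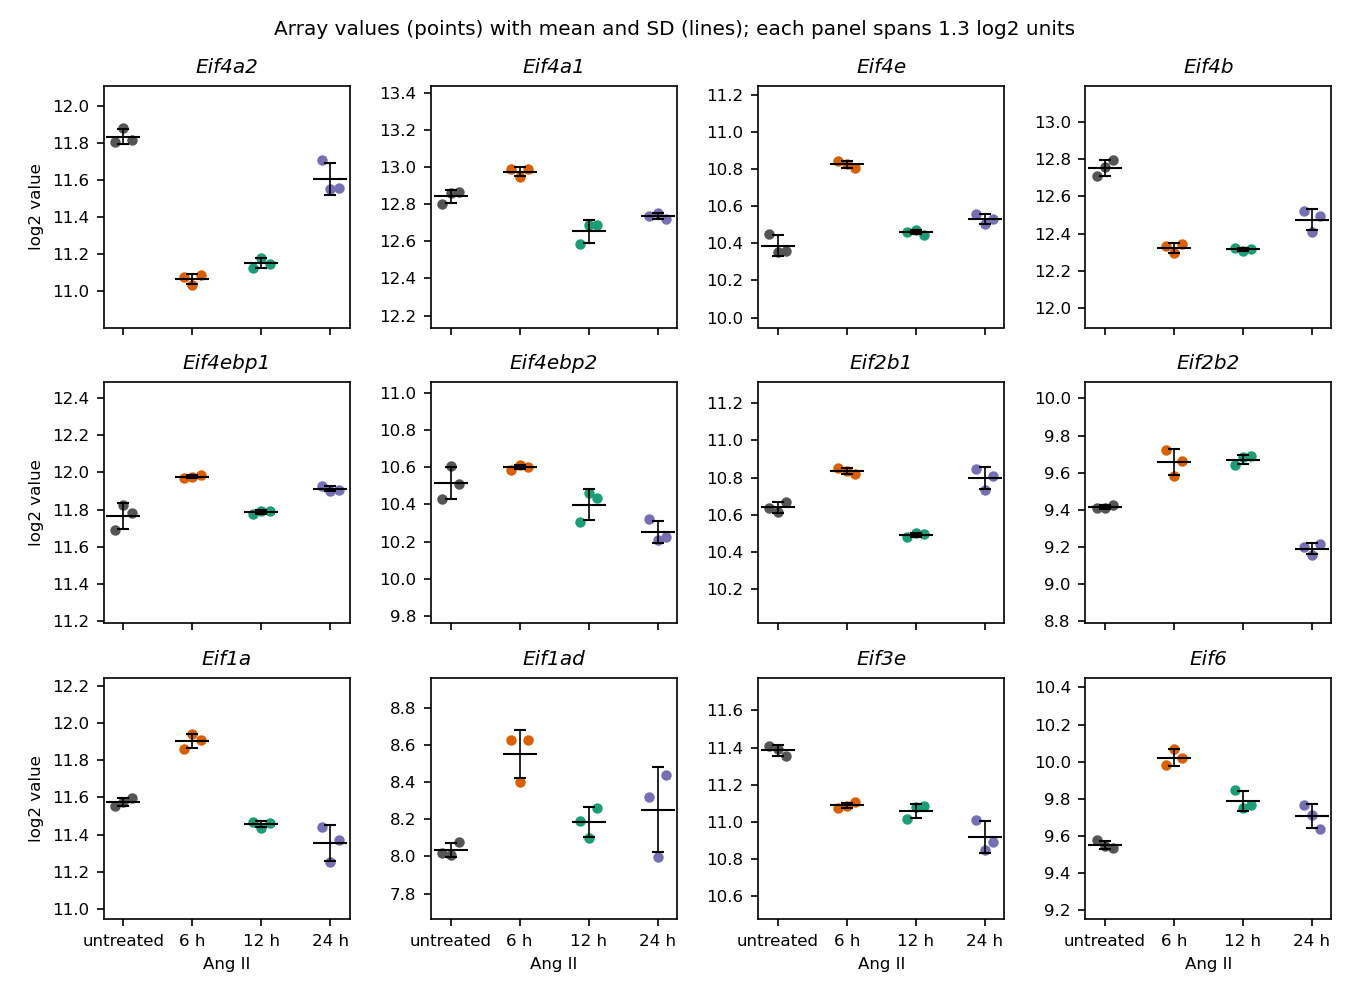
Points are the log2 values (y axis, each panel spanning 1.3 log2 units) of 12 genes on the 3 arrays of each group (x axis, untreated and 6, 12 and 24 h of Ang II), with lines for the mean and SD. Eif4a2 drops at 6 and 12 h and returns most of the way by 24 h, Eif4e and Eif6 peak at 6 h, and Eif2b1 and Eif2b2 part at 12 and 24 h.

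Of the 3 proteins that bind eIF4E, 2 rose at 6 h, 0 were called at 12 h, and 1 rose and 1 fell at 24 h. Over all genes 18.6% were higher at 6 h, and 15.3% higher and 14.7% lower at 24 h. At or above the median level 31% were higher at 6 h, and 20.3% higher and 24.1% lower at 24 h. Eif4ebp1, the 4E-BP whose phosphorylation is the usual readout of mTOR activity, had values of 11.69, 11.83 and 11.78 on the control arrays, 11.97, 11.98 and 11.99 at 6 h, 11.78, 11.79 and 11.79 at 12 h, and 11.93, 11.90 and 11.91 at 24 h. The 6 h and 24 h arrays lay above all control arrays and the 12 h arrays among them. The rise was 0.21 ± 0.04 at 6 h (limma adjusted p = 0.00153) and 0.15 ± 0.04 at 24 h (adjusted p = 0.0198, or 0.0836 without control replicate 1).

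Eif4ebp2, the second 4E-BP, had values of 10.43, 10.60 and 10.51 on the control arrays, 10.59, 10.61 and 10.60 at 6 h, 10.30, 10.46 and 10.43 at 12 h, and 10.32, 10.21 and 10.23 at 24 h. Only the 24 h arrays lay clear of the control arrays. It was not called at 6 h (0.09, limma adjusted p = 0.303) or 12 h (-0.12, adjusted p = 0.168) and fell by 0.26 ± 0.06 at 24 h (adjusted p = 0.0042). Eif4enif1, which carries eIF4E into the nucleus and to sites of message storage, was 0.17 higher at 6 h (adjusted p = 0.0467). Any of 8 arrays, when left out, ended that call, namely the 3 control arrays, the 3 arrays at 6 h, replicate 2 at 12 h and replicate 3 at 24 h (adjusted p up to 0.149). Further quantile normalization ended it too (adjusted p = 0.0669).

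All 4 genes of the eIF1 and eIF1A group rose at 6 h, 0 were called at 12 h, and 2 fell at 24 h. The share higher at 6 h was 18.6% of all genes and 31% of those at or above the median level. The share lower at 24 h was 14.7% and 24.1%. The small factors eIF1 and eIF1A keep the scanning ribosome open until the start codon is met. Eif1a had values of 11.55, 11.58 and 11.60 on the control arrays, 11.86, 11.94 and 11.91 at 6 h, 11.47, 11.44 and 11.46 at 12 h, and 11.44, 11.25 and 11.37 at 24 h. Its 6 h arrays were above, and all later arrays below, the control arrays. The change was 0.33 ± 0.05 at 6 h (limma adjusted p = 0.000219), -0.12 at 12 h (adjusted p = 0.0968) and -0.22 ± 0.05 at 24 h (adjusted p = 0.00501), and 24 h was 0.55 below 6 h (log2 change -0.55 ± 0.05, adjusted p = 3.58e-06).

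Eif1ax, the X-linked form of the same factor, rose by 0.19 at 6 h and fell by 0.23 at 24 h against control. Eif1b, a close relative of eIF1, rose by 0.32 at 6 h and was not called later. Eif1ad, a protein with an eIF1A-like domain, had values of 8.02, 8.01 and 8.08 on the control arrays, 8.63, 8.40 and 8.62 at 6 h, 8.19, 8.10 and 8.26 at 12 h, and 8.32, 8.00 and 8.44 at 24 h. The 6 h and 12 h arrays lay above the control arrays, whereas the 24 h arrays were widely spread and overlapped them. The rise was 0.51 ± 0.10 at 6 h (1.43-fold, limma adjusted p = 0.00149), and the gene was not called at 12 h (0.15, adjusted p = 0.341) or 24 h (0.21, adjusted p = 0.133).

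The 11 genes of eIF2, eIF2B and related factors moved in both directions. At 6 h 6 rose and 2 fell, at 12 h 2 rose and 3 fell, and at 24 h 3 rose and 3 fell. These are 54.5% and 18.2% at 6 h, 18.2% and 27.3% at 12 h, and 27.3% and 27.3% at 24 h. Genes at or above the median level stood at 31% and 26.3%, 21.3% and 20.9%, and 20.3% and 24.1%. The shares at 12 and 24 h lie near that background. Among the 3 subunits of eIF2, Eif2s1, the alpha subunit that stress kinases phosphorylate, and Eif2s2, the beta subunit, were not called at any time against control, while Eif2s3, the gamma subunit that binds the transfer RNA, fell by 0.19, 0.28 and 0.27 at 6, 12 and 24 h. Eif2a, a separate protein that can deliver the initiator transfer RNA without eIF2, fell by 0.35, 0.43 and 0.30. Eif2s3 and Eif2a are the 2 genes with the pyrimidine runs shown above.

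The 5 subunits of eIF2B, the exchange factor that recharges eIF2, gave calls of both signs. Eif2b1, the alpha subunit, had values of 10.63, 10.61 and 10.67 on the control arrays, 10.85, 10.84 and 10.82 at 6 h, 10.48, 10.50 and 10.50 at 12 h, and 10.85, 10.74 and 10.81 at 24 h. It was above the control arrays at 6 and 24 h and below them at 12 h. The change was 0.20 ± 0.04 (limma adjusted p = 0.00213), -0.15 ± 0.04 (adjusted p = 0.0169, or 0.0697 without control replicate 3) and 0.16 ± 0.04 (adjusted p = 0.0108) at 6, 12 and 24 h.

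Eif2b2, the beta subunit, had values of 9.41, 9.41 and 9.43 on the control arrays, 9.72, 9.58 and 9.66 at 6 h, 9.64, 9.68 and 9.69 at 12 h, and 9.20, 9.16 and 9.21 at 24 h. It was above the control arrays at 6 and 12 h and below them at 24 h. The change was 0.24 ± 0.04, 0.26 ± 0.04 and -0.22 ± 0.04 (limma adjusted p = 0.000742, 0.000777 and 0.0019), and the fall from 12 to 24 h was -0.48 ± 0.04 (adjusted p = 8.88e-06). On each array the difference Eif2b2 minus Eif2b1 changed by 0.05, 0.40 and -0.38 at 6, 12 and 24 h (exact two-sided permutation p = 0.4, 0.1 and 0.1, where 0.1 is the smallest possible, and 0.4, 0.15 and 0.15 adjusted over the 9 tests).

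For the other 3 subunits of eIF2B several calls rested on single arrays. Eif2b3, the gamma subunit, rose by 0.36, 0.27 and 0.28 at 6, 12 and 24 h. Its call at 12 h was lost without any of 10 arrays (all but replicates 1 and 2 at 24 h, adjusted p up to 0.143). At 24 h it was lost without control replicate 1 or 2 or replicate 1 at 24 h (adjusted p up to 0.106). Eif2b4, the delta subunit, was called at 24 h alone (0.16), and lost that call without control replicate 1 or 3 or replicate 1 or 2 at 24 h (adjusted p up to 0.0751). Eif2b5, the catalytic epsilon subunit, rose by 0.19 at 6 h (adjusted p = 0.0143, or 0.056 without replicate 3 at 6 h). Eif2d, which can also deliver transfer RNA, rose by 0.30 at 6 h, and Eif5, which triggers GTP hydrolysis by eIF2 at the start codon, rose by 0.22 at 6 h, and neither was called at 12 or 24 h.

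**Figure D4:**
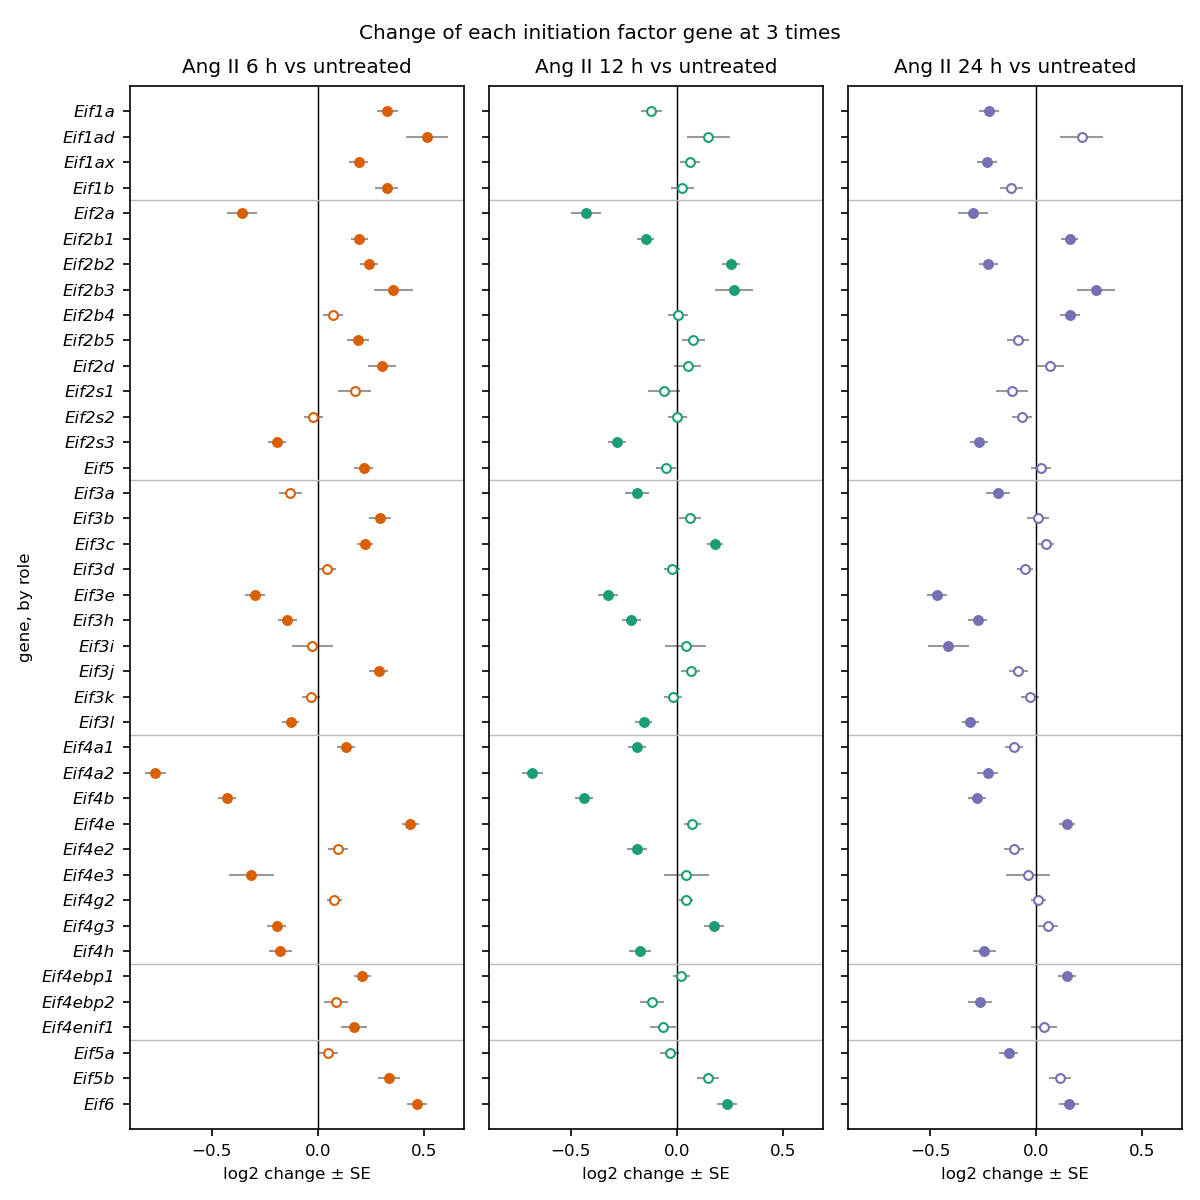
Each point is the log2 change of a gene (y axis, by role) from untreated cells at 6, 12 or 24 h (x axis, bars are ± SE), filled where the limma adjusted p is under 0.05. The 4 eIF1 genes are filled on the right at 6 h, and Eif3e, Eif3h, Eif3i and Eif3l are filled on the left at 24 h.

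Among the 10 subunits of eIF3, 3 rose and 3 fell at 6 h, 1 rose and 4 fell at 12 h, and 0 rose and 5 fell at 24 h. Genes at or above the median level stood at 31% higher and 26.3% lower at 6 h, so the 30% and 30% of eIF3 lie near that background. At 12 and 24 h those genes stood at 21.3% and 20.9%, and 20.3% and 24.1%. Eif3e had values of 11.41, 11.39 and 11.35 on the control arrays, 11.08, 11.08 and 11.11 at 6 h, 11.02, 11.08 and 11.09 at 12 h, and 11.01, 10.85 and 10.89 at 24 h. All arrays with Ang II lay below all control arrays. The change was -0.30 ± 0.05, -0.32 ± 0.05 and -0.47 ± 0.05 at 6, 12 and 24 h (limma adjusted p = 0.000354, 0.000297 and 1.59e-05).

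Eif3h and Eif3l also fell at each time, by 0.14, 0.21 and 0.27 for Eif3h and by 0.13, 0.16 and 0.31 for Eif3l. A second probe set of Eif3h gave -0.19, -0.20 and -0.40. At 6 h the call of Eif3h was lost without control replicate 1 or 2 or replicate 1 at 6 h, and that of Eif3l without control replicate 2 or 3 or replicate 1 or 2 at 6 h (adjusted p up to 0.11 for both). Centring on array medians also ended the call of Eif3h (adjusted p = 0.0832). At 12 h the call of Eif3l was lost without control replicate 2 or replicate 1 at 12 h (adjusted p up to 0.0587). Eif3a, the largest subunit, fell by 0.19 at 12 h and 0.18 at 24 h. Each of these calls was lost without any of 4 arrays, which were control replicates 1 and 3 with replicates 1 and 2 at 12 h (adjusted p up to 0.103) and control replicates 1 and 3 with replicates 2 and 3 at 24 h (adjusted p up to 0.109). Centring ended the 24 h call as well (adjusted p = 0.058).

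The eIF3 subunits that rose did so at 6 h. Eif3b, whose promoter holds the E-box shown above, rose by 0.29 at 6 h, as did Eif3j, a loosely bound subunit, by 0.29. Eif3c rose by 0.22 at 6 h and 0.18 at 12 h. None of these 3 was called at 24 h against control. Eif3i fell at 24 h alone (-0.41 ± 0.10, limma adjusted p = 0.00653), with arrays at 8.29, 8.11 and 8.57 against 8.76, 8.77 and 8.68 on the control arrays. Eif3d, which can bind the cap of some messages, and Eif3k were not called at any time.

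Of the 3 late factors, 2 rose at 6 h, 1 rose at 12 h, and 1 rose and 1 fell at 24 h. Higher were 18.6% of all genes at 6 h, 13.3% at 12 h and 15.3% at 24 h, when 14.7% were lower. Of genes at or above the median level, 31%, 21.3% and 20.3% were higher at these times, and 24.1% were lower at 24 h. Eif6, which binds the large ribosomal subunit and keeps it from joining too soon, had values of 9.58, 9.54 and 9.54 on the control arrays, 9.98, 10.07 and 10.02 at 6 h, 9.85, 9.75 and 9.77 at 12 h, and 9.77, 9.71 and 9.64 at 24 h. All arrays with Ang II lay above all control arrays, those at 6 h highest. The rise was 0.47 ± 0.05 at 6 h (1.38-fold, limma adjusted p = 8.22e-06), 0.24 ± 0.05 at 12 h (adjusted p = 0.00268) and 0.15 ± 0.05 at 24 h (adjusted p = 0.0284). The last call was lost without any of the 3 control arrays or replicate 1 or 2 at 24 h (adjusted p up to 0.0898).

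Eif5b, which promotes joining of the subunits, rose by 0.34 at 6 h and was not called at 12 h (0.14, limma adjusted p = 0.0585) or 24 h (0.11, adjusted p = 0.122). Eif5a, which helps the ribosome through difficult peptide bonds, fell by 0.13 at 24 h (adjusted p = 0.0462). That call was lost without any of 10 arrays, all but control replicate 3 and replicate 1 at 24 h (adjusted p up to 0.164), and with arrays centred on their medians (-0.07, adjusted p = 0.183).

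Between the times of Ang II, most called differences were falls from the 6 h level. From 6 to 12 h 2 genes rose and 17 fell, against 13.1% of all genes higher and 13.9% lower (20.1% and 23.1% at or above the median level). From 6 to 24 h 3 rose and 23 fell, against 19.4% and 19.8% (25.7% and 33.4% at or above the median level). These 2 comparisons share the 6 h arrays. The 3 that rose from 6 to 24 h, Eif4a2, Eif4b and Eif4g3, are all of the eIF4 group. In that group 3 others, Eif4a1, Eif4e and Eif4e2, fell. All 4 eIF1 genes, 5 of 11 eIF2 genes, 7 of 10 eIF3 genes, 1 of 3 eIF4E-binding genes and all 3 late factors fell. Eif4g3 and Eif4e3 were the 2 that rose from 6 to 12 h, and 1 rose without replicate 2 or 3 of either group.

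From 12 to 24 h 5 rose and 8 fell, against 14% of all genes higher and 13.5% lower (18.1% and 22.4% at or above the median level). With arrays centred on their medians the split was 7 higher and 4 lower, so the balance of this step depends on the scaling. The 5 that rose became 3 without replicate 1 or 2 at 12 h or any replicate at 24 h. The 8 that fell became 5 without replicate 2 at 12 h, and 3 without replicate 3 at 12 h or replicate 2 at 24 h. Without replicate 2 at 24 h, all genes called in this step also went from 2028 to 1685 higher and from 1955 to 1520 lower.

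Other regulators of translation formed a list of 40 genes, of which 34 were measured. At 6 h 9 rose and 7 fell, at 12 h 1 rose and 8 fell, and at 24 h 4 rose and 13 fell, with median changes of -0.03, -0.07 and -0.10. These are 26.5% and 20.6% of the list at 6 h, 2.94% and 23.5% at 12 h, and 11.8% and 38.2% at 24 h. At 6 h both shares lay between those of all genes (18.6% and 17.2%) and those of genes at or above the median level (31% and 26.3%). At 12 and 24 h all genes stood at 13.3% and 13.3%, and 15.3% and 14.7%. Genes at or above the median level then stood at 21.3% and 20.9%, and 20.3% and 24.1%, so the share lower at 12 h lay near theirs. Eef2k, the kinase that inhibits elongation factor eEF2, fell by 0.81 ± 0.04 at 6 h (limma adjusted p = 3.53e-08). Also at 6 h Rheb, the GTPase that activates mTOR, rose by 0.34, Eef1e1 by 0.30, the S6 kinase Rps6kb2 by 0.29 and the eIF4E kinase Mknk2 by 0.26, while the mTOR partners Rptor and Mlst8 fell by 0.23 and 0.17 and Paip1, which binds the poly(A)-binding protein, by 0.20.

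Ppp1r15a, the phosphatase subunit that restores eIF2 after stress, fell by 0.79 ± 0.05 at 12 h (limma adjusted p = 1.4e-07) and 0.55 ± 0.05 at 24 h, and its constitutive relative Ppp1r15b fell by 0.38 at 12 h. Eef2 fell by 0.21 and Paip1 by 0.19 at 12 h. At 24 h the other eIF4E kinase, Mknk1, rose by 0.54 ± 0.06, Rheb and the helicase Ddx3x by 0.25 each, while Mknk2 fell by 0.37, the mTOR inhibitor Ddit4 by 0.34 and the elongation factor Eef1b2 by 0.29. Of the 4 eIF2 kinases, Eif2ak1 rose by 0.22, 0.19 and 0.15 at 6, 12 and 24 h and Eif2ak3 was not called. Eif2ak2 fell by 0.21 at 24 h, and Eif2ak4 rose by 0.14 at 6 h and fell by 0.22 at 24 h.

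The gene profiles most like that of Eif4a2 over the 12 arrays were those of Rabggtb (Pearson's r = 0.991), Crebzf (0.991), Bmp3 (0.986), Med23 (0.982) and Npr3 (0.982), out of all genes measured and given as a description. The arrays share the 4 group means, which set most of such a correlation. The changes at 6, 12 and 24 h were -0.87, -0.75 and -0.16 for Rabggtb and -1.89, -2.02 and -0.67 for Npr3.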

How the data were processed

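RNA of 12 samples in 4 groups of 3, grouped by their titles, was measured on 1-colour arrays. The deposited values are log2 values per probe set, and RMA and Partek are the tools named for them by the submitters' processing notes. What versions and filters the authors used is not given in the sources used here. Scanner files were not analysed here. Array medians were 7.22 to 7.32 and values ran from 2.25 to 14.6. The number of arrays limits the precision.

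Of 29214 probe sets, the platform annotation gave 15310 a single symbol, 323 several (none of an initiation factor gene) and 13581 none. For each of the 527 genes with several probe sets the brightest was kept, leaving 14506 genes. RefSeq (GRCr8) gave 39 of the 40 symbols again, and Eif5 kept its own.

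All 12 arrays entered a limma 3.58.1 model of 4 group means in R 4.3.3 (8 residual and 3.37 prior degrees of freedom), two-sided, with p-values adjusted by Benjamini-Hochberg over all genes within each comparison at 0.05. No filter was applied. The procedure was tested on simulated data. All array values are printed by rule for genes passing with a log2 change of at least 0.5 and for the 4E-BPs and Eif4e. Of the other regulators, up to 4 per direction and time are named by largest change. Likeness is Pearson's r. The alternatives were the replicate number as a block, further quantile normalization, centring on array medians, array weights, a trended and robust variance, the mean of all probe sets of a gene, a filter on dim genes, a fit of the compared groups alone and leaving out arrays. Same-numbered samples were not treated as pairs, since the labels do not pair them and not every pair's deviations correlated. The genes, lists, motifs and tests were chosen with earlier results of these data known. Tables and figures used Python 3.11.15, pandas 2.3.3, SciPy 1.17.1 and matplotlib 3.10.9.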

Additional observations from a re-analysis of the deposited data

Results flagged for a closer look

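In 6 initiation factor genes the limma calls against control had opposite signs at different times and the difference between those times was called too. They are 15% of the 40, against 4.99% of all genes and 8.77% of genes at or above the median level that met the same criterion. Eif1a differed by -0.55 on the log2 scale between 24 and 6 h and Eif1ax by -0.42. Eif2b1 changed by -0.34 from 6 to 12 h and by 0.31 from 12 to 24 h. Eif2b2 changed by -0.48 from 12 to 24 h and by -0.47 from 6 to 24 h. Eif4a1 changed by -0.32 and Eif4g3 by 0.37 from 6 to 12 h. The comparisons with control share their control arrays. The call of Eif4a1 at 6 h was lost under 5 alternatives, and those of Eif2b1 and Eif4g3 at 12 h under 1 each.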

How the results depend on the processing

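Of 67 calls of initiation factor genes against control, 46 held under every alternative, 21 were lost under at least 1, and 0 changed sign. With only the compared groups in the fit, 2 genes were higher at 24 h than in control, 1 was higher at 12 h than at 6 h, and 2 were higher and 3 lower at 24 h than at 12 h. Over all genes that fit called 1443 higher and 1516 lower at 24 h than at 12 h, against 2028 and 1955 in the main fit. With genes below the median level left out, 1 was higher at 12 h than at 6 h. Between 24 and 12 h, array weights gave 3 higher, and centring on array medians gave 4 lower. When each Ang II group lost the array whose values spread least over genes, an alternative chosen after seeing the data, 3 were higher and 3 lower between 24 and 12 h. Leaving out 1 array at a time, 16 to 20 were higher and 6 to 10 lower at 6 h, 3 to 6 higher and 9 to 13 lower at 12 h, and 2 to 6 higher and 13 to 15 lower at 24 h. Likewise 1 to 2 were higher and 12 to 18 lower between 12 and 6 h, 3 to 5 higher and 3 to 8 lower between 24 and 12 h, 3 to 4 higher and 20 to 23 lower between 24 and 6 h, and 31 to 35 passed the F test. With the replicate number as a block, 19 were higher and 10 lower at 6 h, 4 and 11 at 12 h, and 6 and 14 at 24 h. The block ended 4 calls, those of Eif2b3 at 12 and 24 h, Eif4h at 12 h and Eif5a at 24 h (adjusted p 0.0504 to 0.0709). The labels give the replicate numbers no shared origin. Of 18 same-numbered pairs, 3 had a correlation of deviations over 0.1 (range -0.10 to 0.30). Of the 12 arrays, 7 correlated best with their own number, so whether the numbers pair the samples is not settled. Besides single arrays and the block, calls were lost in the fit of the compared groups alone (10), without the arrays of narrowest spread (13), with centring (3), further quantile normalization (2) and array weights (1). Of the 10, Eif3h, Eif3l and Eif4e3 were at 6 h and Eif3a and Eif4h at 12 h. The rest were Eif2b3, Eif4e, Eif4ebp1, Eif5a and Eif6 at 24 h. Of the 13, Eif3l, Eif4e3 and Eif4h were at 6 h, and Eif2b3, Eif3a, Eif3l, Eif4e2 and Eif4h at 12 h. The others were Eif2b4, Eif3a, Eif4ebp1, Eif5a and Eif6 at 24 h.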
